A study of Mus musculus with 2 samples.

Results

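Interferon-stimulated genes are the transcripts that cells make more of once interferon binds its receptor, and 48 of them were listed by symbol for this account of mouse liver nonparenchymal cells (NPCs). Of these, 47 had a column among the 16383 gene columns of both count tables, and *Mx2* was not analysed here. The 47 were split by role: 12 type I interferon targets (the *Ifit*, *Oas* and *Mx* genes and *Isg15*), 12 interferon-gamma targets (the *Gbp* and *Irgm* genes, *Igtp* and *Iigp1*), 3 transcription factors, 4 RNA sensors and kinases, 3 immunoproteasome subunits, 2 membrane restriction factors, 4 genes of ubiquitin, ISG15 and ADP-ribose transfer, and 7 others. The members were listed by name, with earlier results of these data known. NPCs came from male C57BL/6 mice that started at 8 weeks of age and were fed for 6 weeks, either on a low-fat standard diet (the control group) or on one deficient in methionine and choline (MCD, the NASH group). Livers of 3 mice per diet were digested and pooled into 1 library, captured on BD Rhapsody cartridges. All animals were wild type. Because the 3 mice of each diet were pooled, mouse-to-mouse spread was not measured. Because each diet is a single library, the diets could not be tested against each other: each level below is given for both libraries, and every interval is a 95% interval of counting error only. The MCD diet causes steatosis and inflammation with weight loss and without insulin resistance, which limits it as a model of the human disease.

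As background, type I interferons (interferon alpha and beta) signal through a cell surface receptor, and their target promoters carry the interferon-stimulated response element (ISRE). Interferon gamma, made mainly by T cells and NK cells, acts through a receptor of its own and the gamma-activated site (GAS), and it also induces IRF1, which binds ISRE-like sequences. The targets therefore overlap, and the division into type I and interferon-gamma targets is one of emphasis. In the liver, Kupffer cells (KCs), sinusoidal endothelial cells (LSECs), vascular endothelial cells (VECs) and lymphocytes all respond to both kinds of interferon.

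The promoters are shown first, because the response elements are a sequence feature of many members, though not of all. RefSeq promoter windows of GRCm38.p6, each 300 bases from 250 before to 50 after a transcription start, were found for 35 of the 48 members. The ISRE core searched was a pair of GAAA repeats spaced by 2 bases, on either strand, and the GAS core was TTCNNNGAA. An ISRE core lay in the promoters of 19 of the 35 members (54.3%), against 1079 of all 27025 genes in the table (3.99%). A GAS core lay in those of 13 members (37.1%) against 9.55% of all genes, and both cores occurred in 8 members (22.9%) against 0.614%. The 7 interferon-gamma targets with a window all held an ISRE core and 4 of them a GAS core as well, while 7 of 10 type I targets held an ISRE core and 2 a GAS core. None of the 3 immunoproteasome subunits held an ISRE core. Neither core was found in 11 of the 35 members. Each match is a description of letters, not a proven binding site, and a window without a match says nothing about the factor.

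Windows of 60 bases upstream of the start are given 5′ to 3′ on the strand of the gene for the members on which the results turn. Capitals mark the matches of 1 kind of core, ISRE unless GAS is named, and matches can overlap. *Isg15*, the ubiquitin-like modifier that differed most evenly between diets, holds 3 overlapping ISRE cores at chr4:156200850-156200909 on the minus strand. *Ifit1* (chr19:34640779-34640838, plus strand) holds 2. *Ifit3* (chr19:34583382-34583441) and *Ifit3b* (chr19:34607778-34607837), both on the plus strand, have the same 60 bases, and their transcripts are near-identical copies whose UMIs the counting could have split.
Isg15: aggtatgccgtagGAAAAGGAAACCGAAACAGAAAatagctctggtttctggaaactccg
Ifit1: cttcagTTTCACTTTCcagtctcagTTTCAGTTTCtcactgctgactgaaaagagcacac
Ifit3: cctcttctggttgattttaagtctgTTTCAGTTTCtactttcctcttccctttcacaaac
Ifit3b: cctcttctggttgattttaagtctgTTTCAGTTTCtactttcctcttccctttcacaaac

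Windows of interferon-gamma targets, of *Bst2* and of *Irf1* are shown beside them. Only *Igtp* among these targets is past 1.5 times in opposite directions in T cell-like cells and monocyte and macrophage-like cells. *Gbp2* and *Gbp5* are past it in 1 of these classes each, and *Irgm2*, past it in neither, is the neighbour of *Igtp*. *Gbp2* (chr3:142620579-142620638, plus strand) and *Gbp5* (chr3:142496744-142496803, plus strand) hold 1 ISRE core each in the windows shown. *Igtp* (chr11:58199485-58199544) and *Irgm2* (chr11:58214876-58214935), on the plus strand, are drawn here with their GAS core in capitals, and the ISRE core that follows it in each is left in lower case. *Bst2* (chr8:71537562-71537621, minus strand) holds 2 overlapping ISRE cores in capitals and a GAS core that overlaps them and is left in lower case, and *Irf1* (chr11:53769898-53769957, plus strand) holds a GAS core and no ISRE core.
Gbp2: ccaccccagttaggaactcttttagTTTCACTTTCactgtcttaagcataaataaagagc
Gbp5: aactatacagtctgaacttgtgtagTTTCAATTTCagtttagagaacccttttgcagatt
Igtp: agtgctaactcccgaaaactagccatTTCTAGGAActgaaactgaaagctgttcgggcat
Irgm2: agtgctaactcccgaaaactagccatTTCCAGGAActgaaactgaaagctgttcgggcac
Bst2: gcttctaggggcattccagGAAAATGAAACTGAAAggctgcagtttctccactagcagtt
Irf1: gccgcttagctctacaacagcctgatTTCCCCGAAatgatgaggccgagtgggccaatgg

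**Figure D1:**
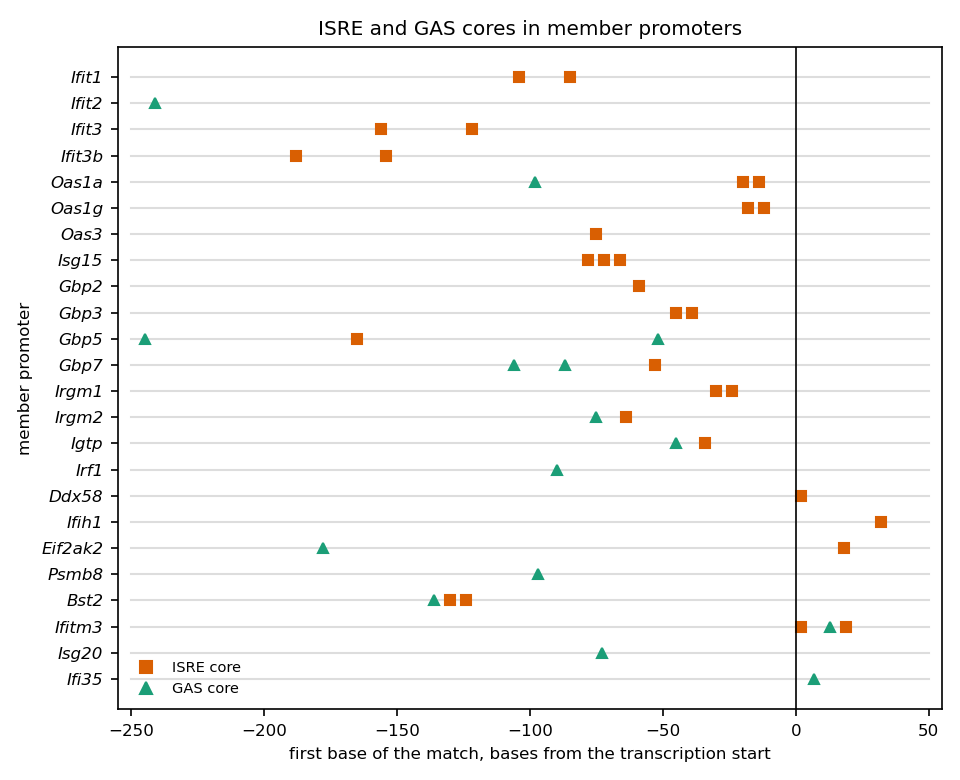
Position of each core match (horizontal axis, bases from the transcription start, upstream to the left) in the promoter windows of members with at least 1 match; squares are ISRE cores and triangles GAS cores. In *Isg15* the 3 ISRE cores lie 66 to 78 bases upstream of the start, and in *Igtp* and *Irgm2* the 2 kinds of core lie 11 bases apart.

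Many members are neighbours in the genome (GRCm38). *Ifit2*, *Ifit3*, *Ifit3b* and *Ifit1* lie in that order between chr19:34550694 and chr19:34650009. *Gbp5*, *Gbp7*, *Gbp3* and *Gbp2* occupy chr3:142493978-142638008, and *Gbp8*, *Gbp9*, *Gbp4* and *Gbp6* occupy chr5:105014150-105293698. The annotations of *Gbp4*, *Gbp8* and *Gbp9* share a 5′ end, those of *Igtp* and *Irgm2* overlap, and *Parp9* and *Dtx3l* overlap on opposite strands. Counts of these genes, of *Ifit3* with *Ifit3b* and of *Oas1a* with *Oas1g* are uncertain where reads could be assigned to either.

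The control counts covered 4336 cells with 11452972 UMIs and the NASH counts 3893 cells with 9326723 UMIs, of which 4209 and 3710 cells had at least 500 UMIs and 200 genes and were kept (median 1683 and 1654 UMIs). The libraries shared 21 cell labels, among the kept cells too. Cells were clustered without the members, and clusters were named from marker lists. The class sizes were 1201 and 1424 LSEC-like cells (control and NASH), 212 and 477 VEC-like, 491 and 475 KC-like, 155 and 358 monocyte and macrophage-like, 103 and 114 dendritic cell-like and 545 and 332 T cell-like cells. Smaller or more unequal classes were 627 and 194 B cell-like, 110 and 6 plasma cell-like, 115 and 76 NK cell and ILC1-like, and 83 and 52 cholangiocyte-like cells. The neutrophil-like class joined cluster 5 (436 and 70 cells) with cluster 17 (14 and 48 cells), and the ratios of these clusters had opposite signs, so cluster 5 is given alone. Marker UMIs of B cells and plasma cells were present in every class and lower in NASH in all but the B cell-like and plasma cell-like cells themselves, for example 4543 against 1503 CPM (counts scaled to 1e6 UMIs of the class) for the 19 B cell markers in LSEC-like cells. Their part in the results was not tested.

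Summed over the 12 type I targets, the level over all kept cells was 700 CPM (control) and 829 CPM (NASH), which as log2 of NASH over control is 0.24 (0.20 to 0.29). By the mean of both libraries the order of the classes was led by neutrophil-like, then monocyte and macrophage-like, then KC-like cells, and ended with plasma cell-like cells (81.2 CPM in the control), although in NASH dendritic cell-like cells lay just above KC-like cells. The sum was higher in NASH in LSEC-like cells (585 and 692 CPM, 0.24, 0.13 to 0.35), VEC-like cells (625 and 793 CPM, 0.34, 0.17 to 0.52) and T cell-like cells (374 and 511 CPM, 0.45, 0.22 to 0.68). These endothelial and T cell intervals lie above 0. In LSEC-like cells the targets did not move alike. *Isg15* (1.10) and *Ifit1* (1.14) were past 1.5 times upwards and *Ifit2* (-0.67) downwards. No other type I target with at least 50 UMIs was past 1.5 times there. Dendritic cell-like cells had 434 and 932 CPM (1.10, 0.88 to 1.33), but 241 of the 513 UMIs in NASH came from 1 cell, which held 6762 UMIs in all, every one of the 12 targets and markers of a second class. Without the highest cell of each library the ratio there was 0.32. In KC-like cells the sum was slightly lower in NASH (975 and 914 CPM, -0.09, -0.17 to -0.01), and without the near-identical copies the ratio was 0.02. Cholangiocyte-like cells had 839 and 485 CPM (-0.79, -1.13 to -0.46).

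Interferon-gamma targets showed another distribution. Their sum was 1432 and 1526 CPM over all kept cells (0.09, 0.06 to 0.12) and 1500 and 1550 CPM in LSEC-like cells (0.05, -0.02 to 0.12), an interval that includes 0. By the mean of both libraries it was highest in VEC-like, T cell-like and monocyte and macrophage-like cells, but in NASH the last lay below neutrophil-like (1777 CPM), LSEC-like and KC-like cells, and in the control cholangiocyte-like cells (2093 CPM) lay above T cell-like cells. T cell-like cells had 1928 and 2652 CPM (0.46, 0.36 to 0.56), and monocyte and macrophage-like cells 2123 and 1214 CPM (-0.81, -0.92 to -0.70). The direction of the sum therefore differed between T cell-like cells and monocyte and macrophage-like cells. The make-up of both classes differed between diets, as described below. KC-like cells had 1650 and 1468 CPM (-0.17, -0.23 to -0.11), and VEC-like cells 2694 and 2262 CPM (-0.25, -0.34 to -0.16). In the VEC-like control cells 301 of 1629 UMIs came from 1 cell with 17907 UMIs and markers of a second class, and without the highest cell of each library the VEC-like ratio was -0.02.

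**Figure D2:**
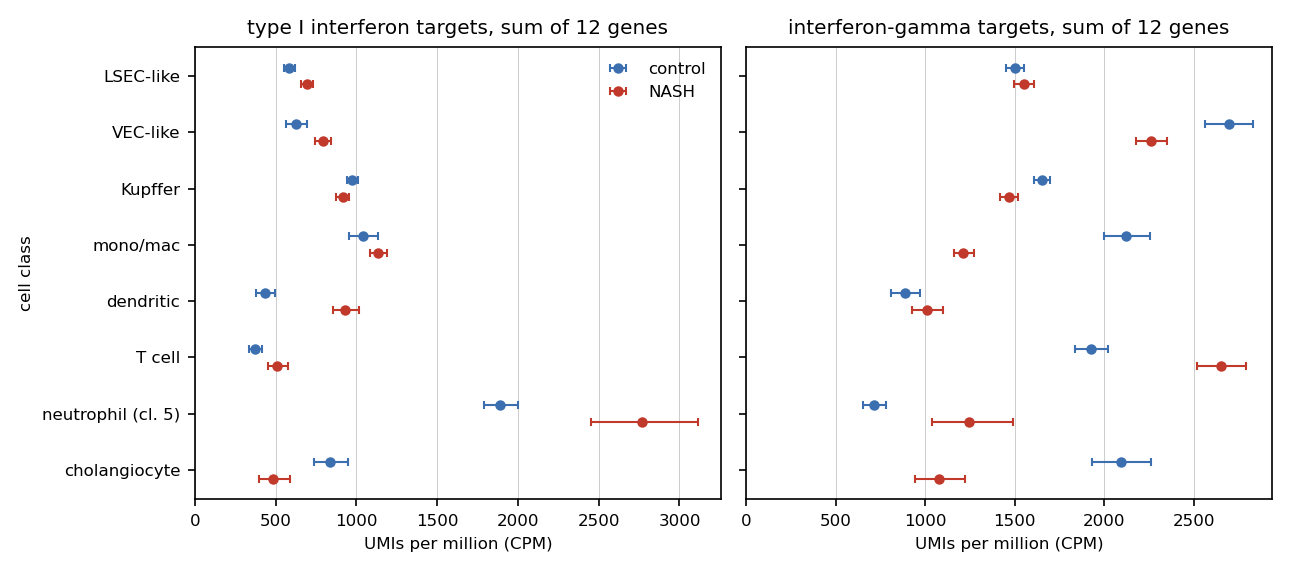
Summed level of the 12 type I targets (left) and the 12 interferon-gamma targets (right), in CPM on the horizontal axis, in 8 cell classes; blue points are the control and red points the NASH library, with 95% Poisson intervals. The type I sum is separated upwards in NASH LSEC-like, VEC-like and T cell-like cells. The interferon-gamma sum is separated downwards in monocyte and macrophage-like cells (2123 and 1214 CPM) and upwards in T cell-like cells. Both sums are lower in NASH cholangiocyte-like cells (839 and 485 CPM for type I targets). The interferon-gamma sum is also lower in KC-like and VEC-like cells. In VEC-like cells 301 of the 1629 control UMIs of this sum came from 1 cell.

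Members were next counted by size, as more than 1.5 times higher or lower in NASH among genes with 50 or more UMIs when the libraries were added up. Over all kept cells 2 of 47 members were higher (*Isg15* and *Ifit1*) and 0 lower, beside 6.65% of all 8857 genes higher and 8.85% lower. The median log2 ratio of the members was 0.06 and that of all genes 0.02. Over all kept cells the share of members past 1.5 times was thus below that of all genes in both directions.

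Endothelial classes and KCs had few members past this size. LSEC-like cells had 2 of 41 higher (*Ifit1*, *Isg15*) and 2 lower (*Ifit2*, *Gbp6*), beside 4.49% of all genes higher and 5.89% lower. VEC-like cells had 4 of 39 higher (*Ifit3b*, *Isg15*, *Herc6*, *Cmpk2*) and 4 lower (*Gbp2*, *Gbp9*, *Ifih1*, *Ifi27l2a*), beside 6.76% and 6.23%. KC-like cells had 1 of 47 higher (*Isg20*) and 1 lower (*Gbp4*), beside 5.51% and 3.39%. These shares are near the background, and all 47 members were measured with at least 50 UMIs in KC-like cells, so no member was left out there for low counts. The clusters within the endothelial classes were less alike. LSEC-like cluster 1 (435 and 779 cells) had 5 of 35 members higher and 2 lower, beside 6.28% and 5.87% of all genes. Cluster 0 (766 and 645 cells) had 2 of 40 and 0, beside 4.84% and 6.28%. VEC-like cluster 4 had 5 of 36 and 4, beside 8.12% and 7.40%, and cluster 11 had 0 of 20 and 3, beside 7.88% and 7.61%.

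Classes with 10 to 21 members at 50 or more UMIs rest on few genes. B cell-like cells had 4 of 21 higher and 1 lower, beside 6.37% and 7.32% of all genes. NK cell and ILC1-like cells had 0 of 12 and 1, beside 7.81% and 6.52%. Plasmacytoid dendritic cell-like cells had 1 of 10 and 5, beside 7.50% and 8.44%. Plasma cell-like cells had 2 of 11 and 3, beside 21.7% and 23.5%. Cycling cell-like cells had 3 of 18 and 4, beside 18.1% and 14.2%. The other classes with more than 21 members measured departed further from the background than the endothelial classes and KCs. T cell-like cells had 11 of 38 members higher (28.9%) and 1 lower, beside 5.66% and 5.64% of all genes, with a median of 0.32 beside -0.01 over all genes. Monocyte and macrophage-like cells had 2 of 45 higher (*Isg15*, *Bst2*) and 14 lower (31.1%), beside 11.5% and 14.7%, with a median of -0.20 beside -0.07. Dendritic cell-like cells had 7 of 30 higher and 0 lower, beside 6.42% and 6.16%. In the neutrophil-like cluster 5, 8 of 24 were higher and 0 lower, beside 13.5% and 13.6%. All 24 ratios were above 0, where the median ratio of all genes was -0.006. Cholangiocyte-like cells had 0 of 23 higher and 11 lower, beside 8.01% and 8.92%. Without the cell of each library that held most UMIs of the gene, 10 of 12 of these differences in T cell-like cells stayed past 1.5 times, 15 of 16 in monocyte and macrophage-like cells, 5 of 7 in dendritic cell-like cells, 5 of 8 in VEC-like cells and 7 of 8 in cluster 5.

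**Figure D3:**
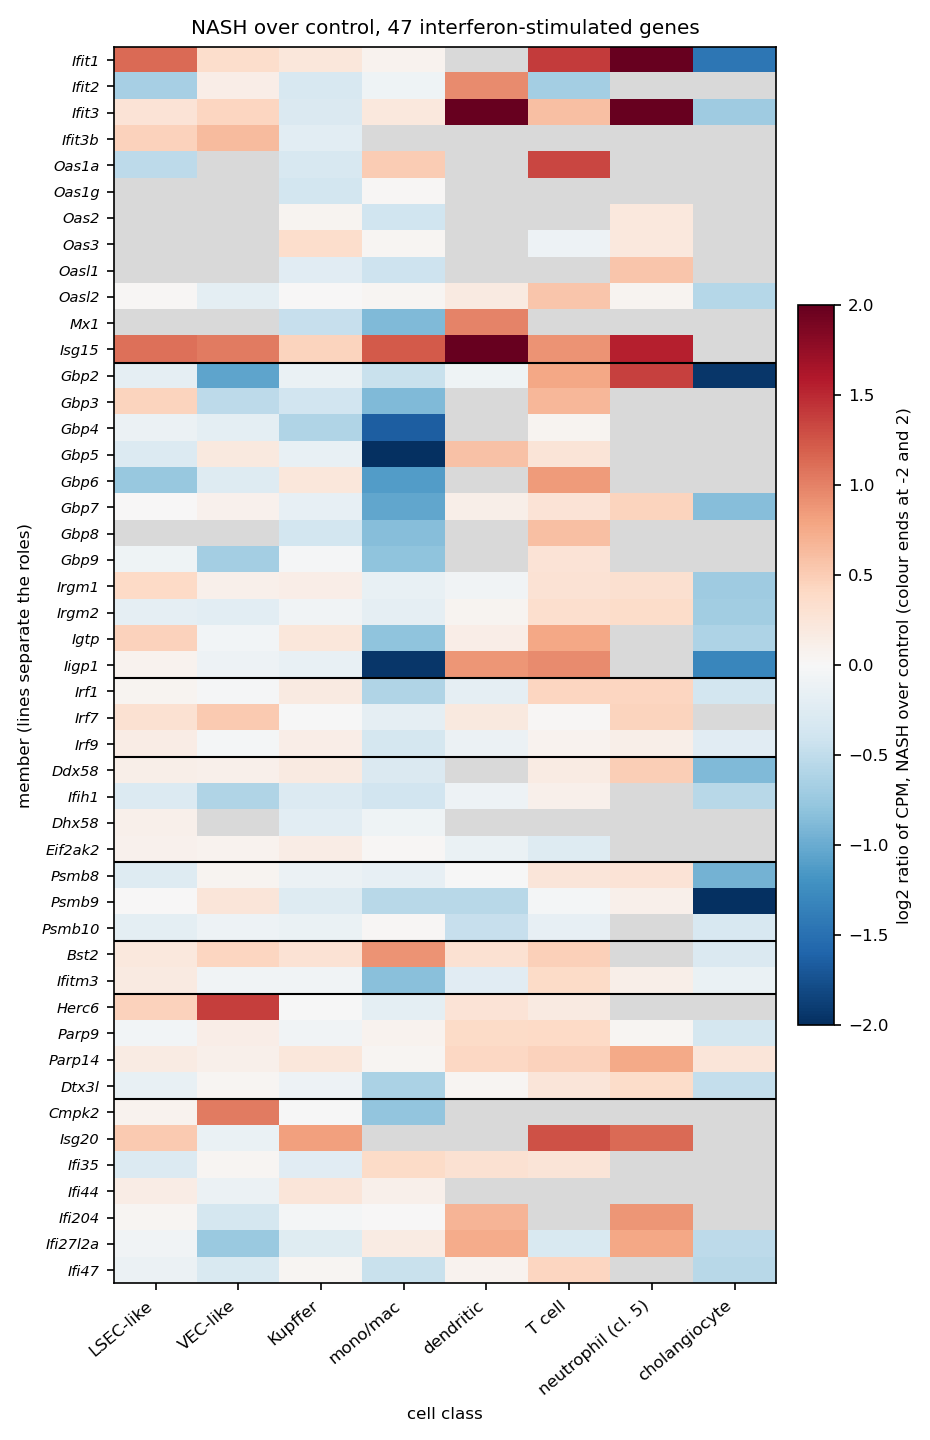
Log2 ratio of CPM (colour, NASH over control, ends at -2 and 2) of the 47 members (vertical axis, lines separate the roles) in 8 cell classes (horizontal axis); grey marks members with fewer than 50 UMIs over both libraries in the class. *Isg15* is red in 7 of the 8 columns, the interferon-gamma targets are blue in the monocyte and macrophage column and red in the T cell column, and the KC column is pale.

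*Isg15* encodes a ubiquitin-like protein that is attached to other proteins during the interferon response. Its level over all kept cells was 53.0 CPM (48.8 to 57.4) in control and 113 CPM (107 to 120) in NASH cells, a ratio of 1.10 (0.95 to 1.24). It was above 0, with the whole interval, in 7 of the 7 classes in which it had at least 50 UMIs, and more than 1.5 times higher in 6 of them. In LSEC-like cells it was 44.7 CPM (36.4 to 54.4) and 96.4 CPM (83.1 to 111), with ratios of 1.00 and 1.14 in the LSEC-like clusters 0 and 1. VEC-like cells had 49.6 and 103 CPM (1.03, 0.46 to 1.68), T cell-like cells 63.6 and 119 CPM (0.90, 0.37 to 1.44), and monocyte and macrophage-like cells 77.5 and 183 CPM (1.22, 0.75 to 1.76). The smallest difference was in KC-like cells, 43.9 and 60.1 CPM (0.45, 0.10 to 0.80). The largest was in dendritic cell-like cells, 52.2 and 216 CPM (2.03, 1.45 to 2.70), where 74 of the 119 NASH UMIs lay in 1 cell and the ratio without the highest cells was 0.79. The highest levels in both libraries were in neutrophil-like cells, 125 and 365 CPM in cluster 5 (1.56, 0.94 to 2.13).

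The IFIT proteins bind foreign RNA and block its translation, and neighbouring *Ifit* genes differed in opposite directions. *Ifit1* was 37.1 CPM (29.6 to 46.0) in control and 82.0 CPM (69.8 to 95.8) in NASH LSEC-like cells, a ratio of 1.14 (0.75 to 1.54). *Ifit2* was 116 CPM (102 to 131) and 72.8 CPM (61.3 to 85.8) in the same cells, a ratio of -0.67 (-0.98 to -0.37). The opposite directions held in both LSEC-like clusters: in cluster 0 the ratios were 1.06 for *Ifit1* and -0.49 for *Ifit2*, and in cluster 1 they were 1.96 and -0.93. *Ifit3* in LSEC-like cells was 135 and 163 CPM (0.27, 0.04 to 0.50), and *Ifit3b* 67.5 and 92.8 CPM (0.46, 0.14 to 0.78). T cell-like cells repeated the split, with *Ifit1* at 34.5 and 91.6 CPM (1.40, 0.74 to 2.10) and *Ifit2* at 74.3 and 45.8 CPM (-0.68, -1.42 to -0.02). There 1 NASH cell held 19 of the 50 *Ifit1* UMIs, and the ratio without the highest cells was 0.81. KC-like cells had *Ifit1* at 35.0 and 40.8 CPM (0.22, -0.19 to 0.63), *Ifit2* at 104 and 83.3 CPM (-0.31, -0.58 to -0.06) and *Ifit3* at 177 and 144 CPM (-0.30, -0.50 to -0.10). In VEC-like cells *Ifit3b* was 86.0 and 134 CPM (0.63, 0.18 to 1.13) and *Ifit1* 74.4 and 95.9 CPM (0.36, -0.15 to 0.90).

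The OAS proteins sense double-stranded RNA, and most of them make the second messenger that activates RNase L. Of the *Oas* genes, *Oas1g*, *Oas2*, *Oas3*, *Oasl1* and *Oasl2* were past 1.5 times in no class in which they had at least 50 UMIs, in either direction. *Oasl2* was the type I target with the most UMIs, at 199 CPM (191 to 208) and 190 CPM (181 to 199) over all kept cells (-0.07, -0.16 to 0.02). It was highest in neutrophil-like cells, 1161 CPM in control and 1207 CPM in NASH cells of cluster 5 (0.06, -0.24 to 0.33), and nearly equal in LSEC-like cells, 141 and 143 CPM (0.02, -0.22 to 0.25). *Oas1a* was the exception, at 21.6 and 54.9 CPM in T cell-like cells (1.34, 0.49 to 2.24) against 98.9 and 79.4 CPM in KC-like cells (-0.32, -0.59 to -0.05). *Mx1*, a gene of the dynamin-like GTPase family, was 87.4 and 47.9 CPM in monocyte and macrophage-like cells (-0.88, -1.43 to -0.30) and 63.4 and 127 CPM in dendritic cell-like cells (0.99, 0.39 to 1.64).

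**Figure D4:**
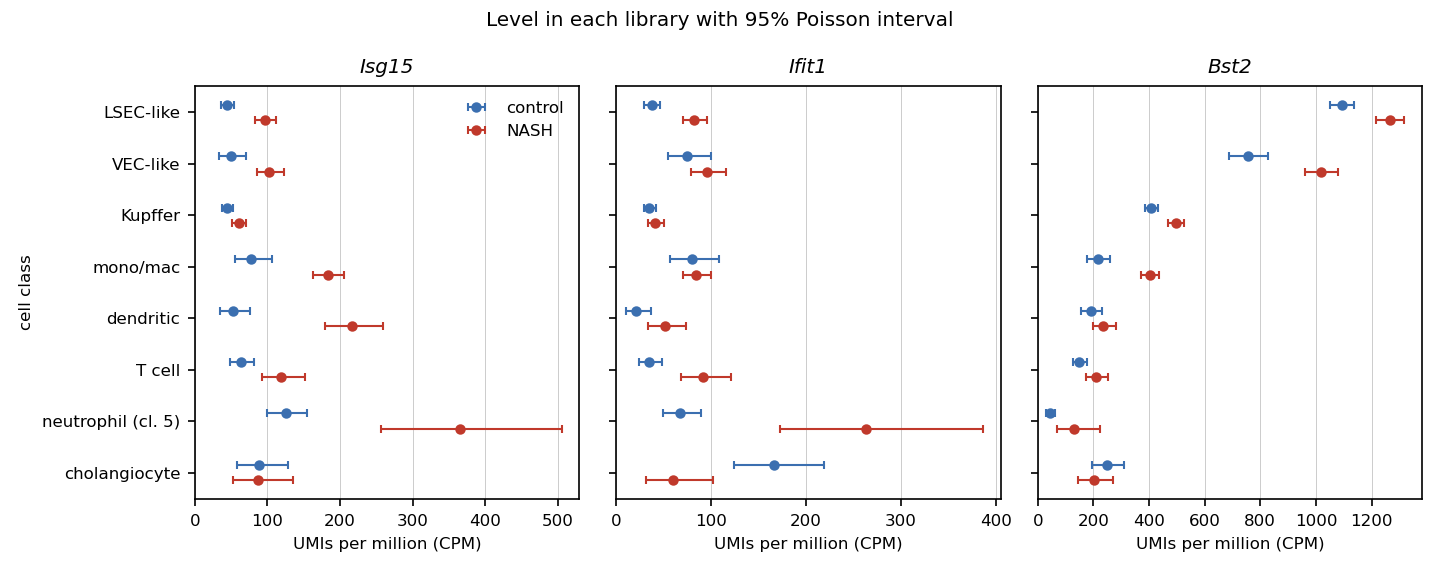
Level of *Isg15*, *Ifit1* and *Bst2* in CPM (horizontal axis) in 8 cell classes, control in blue and NASH in red, with 95% Poisson intervals. *Isg15* lies to the right in NASH in every class but the cholangiocyte-like cells, *Ifit1* is separated in LSEC-like (37.1 and 82.0 CPM) and T cell-like cells but not in KC-like cells, and *Bst2* is shifted by smaller factors in most classes.

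The interferon-gamma targets encode GTPases that act on membranes around intracellular pathogens: the guanylate-binding proteins (*Gbp*) and the immunity-related GTPases (*Irgm1*, *Irgm2*, *Igtp*, *Iigp1*). In LSEC-like cells they were nearly level. *Iigp1*, highest in VEC-like cells in both libraries, was 407 and 426 CPM in LSEC-like cells (0.06, -0.07 to 0.20), and *Gbp7* was 275 and 277 CPM (0.01, -0.15 to 0.18). *Igtp* at 72.9 and 100.5 CPM (0.46, 0.16 to 0.77) and *Irgm1* at 147 and 194 CPM (0.40, 0.18 to 0.62) were higher there, with intervals above 0, while *Gbp6* rested on 41 and 21 UMIs (-0.75, -1.60 to 0.02). In KC-like cells *Gbp4* was 63.9 and 42.1 CPM (-0.60, -0.97 to -0.25), *Gbp3* 208 and 160 CPM (-0.38, -0.57 to -0.19) and *Gbp8* 238 and 184 CPM (-0.37, -0.54 to -0.19). *Gbp2* in VEC-like cells was 480 and 231 CPM (-1.05, -1.30 to -0.81), of which 139 of the 290 control UMIs lay in 1 cell, and the ratio was -0.20 without the highest cells. *Gbp9* in VEC-like cells was 141 and 88.2 CPM (-0.67, -1.10 to -0.24) and -0.61 without them.

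T cell-like cells had 12 of 12 interferon-gamma targets above 0 and 6 past 1.5 times. Of all genes 5.66% were higher by 1.5 times in this class, and the median ratio of all genes was -0.01. *Igtp* was 210 CPM (182 to 242) in the control and 359 CPM (310 to 413) in NASH, a ratio of 0.77 (0.48 to 1.07). *Iigp1* was 90.5 and 174 CPM (0.94, 0.50 to 1.38), *Gbp2* 154 and 264 CPM (0.78, 0.43 to 1.12) and *Gbp6* 79.7 and 145 CPM (0.86, 0.38 to 1.34). The Poisson intervals of both libraries do not overlap for these genes. *Gbp4* had the smallest ratio, 261 and 269 CPM (0.05, -0.26 to 0.35). The class held cluster 6 (319 and 158 cells) and cluster 7, led by *Il4*, *Cd40lg* and *Cxcr6* (226 and 174 cells). The leading genes of cluster 6 included *Cd8a*, *Cd8b1* and *Gzmk*, but *Cd4* was also among its markers. At the finer resolution of 1.2, a T cell-like cluster with *Cd8a* and *Cd8b1* had 163 and 111 cells. Another with *Foxp3*, *Ctla4* and *Cd4* had 154 and 46 cells, so the make-up of the class differed between diets. The part of this make-up in the ratios was not tested. The summed interferon-gamma targets were 1951 and 2356 CPM in cluster 6 (0.27, 0.13 to 0.42) and 1899 and 2924 CPM in cluster 7 (0.62, 0.48 to 0.76). *Iigp1* in particular was 142 and 184 CPM in cluster 6 (0.37, -0.19 to 0.91) but 26.5 and 165 CPM in cluster 7 (2.59, 1.67 to 3.74). *Ifng* itself, the gene of interferon gamma, was 335 and 505 CPM in T cell-like cells (0.59, 0.35 to 0.83) and 39.0 and 39.1 CPM over all kept cells (0.00, -0.20 to 0.21). The 22 T cell markers summed to 15015 and 14887 CPM in the class, and the 20 dendritic cell markers to 1053 and 1659 CPM. Their part in the result was not tested.

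In monocyte and macrophage-like cells 12 of 12 interferon-gamma targets were below 0 and 9 were past 1.5 times. Of all genes 14.7% were lower by 1.5 times in this class, and the median ratio of all genes was -0.07. *Gbp5* was 175 CPM (140 to 215) in the control and 40.0 CPM (30.6 to 51.4) in NASH, a ratio of -2.12 (-2.62 to -1.64). *Iigp1* was 203 and 52.5 CPM (-1.95, -2.39 to -1.51), *Gbp4* 129 and 41.3 CPM (-1.64, -2.17 to -1.12) and *Gbp7* 240 and 117 CPM (-1.04, -1.38 to -0.69). *Gbp2*, the target with the most UMIs there, had a smaller difference, 551 and 406 CPM (-0.44, -0.65 to -0.23). *Irgm1* was 175 and 159 CPM (-0.15, -0.50 to 0.23) and *Irgm2* 121 and 108 CPM (-0.18, -0.61 to 0.28), so these *Irgm* genes had the smallest differences of the 12. *Igtp* was 97.4 and 55.7 CPM (-0.81, -1.33 to -0.27). In the control 1 cell of 13002 UMIs held 181 of the 1068 UMIs of the sum and 45 of the 88 *Gbp5* UMIs. Without the highest cells the summed ratio was -0.63, that of *Gbp5* -1.28 and that of *Iigp1* -1.69.

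The make-up of this class differed between diets as well. *Gpnmb*, a gene of lipid-laden macrophages, was 13.9 and 1403 CPM, *Fabp5*, a lipid carrier, 61.6 and 588 CPM, the monocyte genes *Ly6c2* 1270 and 654 CPM and *F13a1* 1079 and 414 CPM, and *Ace* 666 and 220 CPM. In cluster 8, led by *F13a1* and *Ace*, the summed interferon-gamma targets were 2267 and 1159 CPM (-0.97, -1.09 to -0.84), whereas in cluster 13 they were 1656 and 1370 CPM (-0.28, -0.51 to -0.03). At a finer resolution of 1.2 the cluster with *F13a1* and *Gpnmb* (72 and 220 cells) had 2449 and 1204 CPM (-1.02, -1.16 to -0.88), one with *Cx3cr1* (32 and 98 cells) 1656 and 1375 CPM (-0.27, -0.50 to -0.03) and one with *Ace* (50 and 39 cells) 540 and 428 CPM (-0.33, -0.97 to 0.28). The share of cells with markers of a second class was 6.45% in the control and 20.7% in NASH. The part of these differences in composition in the lower *Gbp* levels was not tested.

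**Figure D5:**
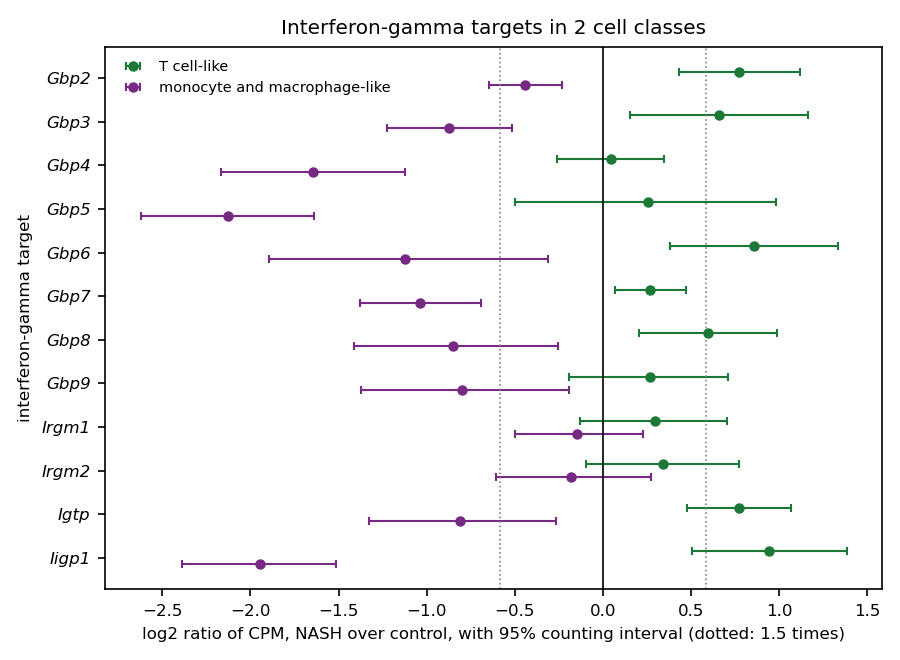
Log2 ratio of NASH to control (horizontal axis) of the 12 interferon-gamma targets in T cell-like cells (green) and monocyte and macrophage-like cells (purple), with 95% counting intervals; dotted lines mark 1.5 times. The 12 green points lie above 0, from 0.05 for *Gbp4*, and the 12 purple points below 0, down to -2.12 for *Gbp5*.

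Of the 3 transcription factors, *Irf7* and *Irf9* were near level in the large classes. *Irf7*, the factor that amplifies type I interferon production, was highest in KC-like cells and equal there, 460 and 459 CPM (0.00, -0.12 to 0.11). *Irf9*, the DNA-binding subunit of the ISRE complex, was 183 and 203 CPM in LSEC-like cells (0.15, -0.06 to 0.35) and 175 and 191 CPM in KC-like cells (0.13, -0.06 to 0.31). *Irf1* is the factor downstream of interferon gamma. It had the direction of the interferon-gamma targets in T cell-like and in monocyte and macrophage-like cells, but not in every class. It was 543 and 734 CPM in T cell-like cells (0.44, 0.24 to 0.63). Monocyte and macrophage-like cells had 531 and 352 CPM (-0.60, -0.81 to -0.38), and -0.50 without the highest cells. LSEC-like cells had 362 and 374 CPM (0.05, -0.10 to 0.19). In plasmacytoid dendritic cell-like cells *Irf1* was higher in NASH (0.97), while the summed interferon-gamma targets were 538 and 391 CPM.

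Sensors of viral RNA were close to level in the large classes. *Ddx58*, which encodes RIG-I, was 130 and 140 CPM in LSEC-like cells (0.11, -0.13 to 0.35) and 122 and 138 CPM in KC-like cells (0.18, -0.04 to 0.40). *Ifih1*, which encodes MDA5, was lower in VEC-like cells, 112 and 74.5 CPM (-0.60, -1.07 to -0.12), and -0.56 without the highest cells. *Eif2ak2*, the kinase PKR that halts translation, had 0 of 8 classes past 1.5 times, and *Dhx58*, a regulator of RIG-I and MDA5, 0 of 3.

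The immunoproteasome subunits, which replace proteasome subunits to produce peptides for MHC class I, had their highest levels for *Psmb8* and *Psmb9* in dendritic cell-like cells. *Psmb8* was 1208 and 1197 CPM there (-0.01, -0.17 to 0.15), and *Psmb9* 593 and 403 CPM (-0.55, -0.81 to -0.30). The *Psmb9* interval also lay below 0 in KC-like cells, 219 and 183 CPM (-0.26, -0.43 to -0.08), and in monocyte and macrophage-like cells, 229 and 155 CPM (-0.56, -0.88 to -0.22). In T cell-like cells *Psmb8* was 837 and 993 CPM (0.25, 0.08 to 0.41). *Psmb10* was within 1.5 times in LSEC-like, KC-like, T cell-like and dendritic cell-like cells.

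The membrane restriction factors differed from each other. *Bst2*, which encodes tetherin, a protein that holds budding virus at the cell surface, was 478 CPM (466 to 491) and 668 CPM (651 to 685) over all kept cells (0.48, 0.43 to 0.53). It was above 0 in 10 of 11 classes, with the interval above 0 in 8. LSEC-like cells had 1094 and 1266 CPM (0.21, 0.13 to 0.29), KC-like cells 408 and 497 CPM (0.28, 0.17 to 0.40) and monocyte and macrophage-like cells 217 and 404 CPM (0.89, 0.60 to 1.21). In VEC-like cells it was 756 and 1019 CPM (0.43, 0.27 to 0.59), with 673 and 1029 CPM in cluster 4 (0.61, 0.42 to 0.80) and 960 and 959 CPM in cluster 11 (0.00, -0.32 to 0.32). The highest level was in plasmacytoid dendritic cell-like cells, 2653 and 3293 CPM (0.31, 0.09 to 0.53), cells for which tetherin is a known surface marker. *Ifitm3*, which blocks viral entry at endosomes, was 2158 and 2445 CPM in LSEC-like cells (0.18, 0.12 to 0.24) but 3076 and 1730 CPM in monocyte and macrophage-like cells (-0.83, -0.92 to -0.74). Within that class the ratio was -1.01 in cluster 8 and 0.54 in cluster 13.

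Among the genes of ubiquitin, ISG15 and ADP-ribose transfer, *Herc6*, the ligase that attaches ISG15 in mice, was 24.8 CPM (13.9 to 40.9) and 66.8 CPM (52.8 to 83.3) in VEC-like cells (1.39, 0.62 to 2.33), from 15 and 78 UMIs, and 56.8 and 77.9 CPM in LSEC-like cells (0.46, 0.11 to 0.81). *Parp14*, a mono-ADP-ribosyltransferase, was above 0 in 10 of 11 classes, for example 207 and 242 CPM in KC-like cells (0.22, 0.06 to 0.39). *Dtx3l*, a ubiquitin ligase that works with *Parp9*, was 336 and 216 CPM in monocyte and macrophage-like cells (-0.64, -0.91 to -0.36), where *Parp9* was 95.4 and 100.3 CPM (0.06, -0.40 to 0.57).

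Of the remaining members, *Cmpk2*, a mitochondrial nucleotide kinase, was 21.5 and 45.4 CPM in VEC-like cells (1.04, 0.18 to 2.08) and 57.6 and 33.4 CPM in monocyte and macrophage-like cells (-0.80, -1.47 to -0.07). *Isg20*, an RNA exonuclease, was 7.95 and 14.2 CPM in KC-like cells (0.83, 0.04 to 1.64) and 24.8 and 60.4 CPM in T cell-like cells (1.28, 0.47 to 2.12). *Ifi204*, a DNA sensor of the PYHIN family, was highest in KC-like cells and level there, 586 and 568 CPM (-0.04, -0.15 to 0.06). *Ifi27l2a* was 508 and 432 CPM in KC-like cells (-0.24, -0.35 to -0.12). *Ifi47*, an immunity-related GTPase, was 513 and 689 CPM in T cell-like cells (0.43, 0.23 to 0.62). *Ifi35* was past 1.5 times in 0 of the 6 classes in which it had at least 50 UMIs.

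Neutrophil-like cluster 5 rested on 70 NASH cells. *Ifit1* was 66.9 CPM (48.8 to 89.5) and 264 CPM (172 to 386) (1.99, 1.22 to 2.71), *Ifit3* 56.5 and 243 CPM (2.12, 1.31 to 2.88) and *Gbp2* 183 and 466 CPM (1.36, 0.83 to 1.85). Of the 123 interferon-gamma target UMIs in NASH, 36 lay in 1 cell. Without the highest cells *Gbp2* was at 0.60, the summed type I targets at 0.35 instead of 0.55 and the summed interferon-gamma targets at 0.41 instead of 0.81. The small cluster 17 had the opposite ratios, -1.65 for type I and -1.85 for interferon-gamma targets, from 14 control and 48 NASH cells.

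Cholangiocyte-like cells were lower for most members. *Iigp1* was 558 CPM (478 to 648) and 224 CPM (166 to 296) (-1.31, -1.81 to -0.85), *Ifit1* 166 and 59.5 CPM (-1.44, -2.49 to -0.59) and *Gbp2* 166 and 41.2 CPM (-1.95, -3.22 to -0.98). The summed interferon-gamma targets were 2093 and 1075 CPM (-0.96, -1.18 to -0.74). The cluster was mixed: the 15 cholangiocyte markers summed to 23470 and 25387 CPM, the 15 stellate cell and fibroblast markers to 14521 and 16363 CPM and the 15 hepatocyte markers to 8433 and 11797 CPM. T cell markers were 294 and 54.9 CPM (18 and 9 of 22 detected) and NK cell markers 1123 and 59.5 CPM (12 and 5 of 19 detected). Their part in the lower levels was not tested.

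In single cells the type I targets were unevenly spread. The highest 5% of kept cells held 41.7% of these UMIs in control and 43.6% in NASH. With each cell thinned to 1000 UMIs, which left out 682 control and 747 NASH cells, 37.4% (35.8 to 39.1) of control and 39.5% (37.7 to 41.3) of NASH cells had at least 1 type I target, and 3.26% (2.70 to 3.90) and 5.50% (4.71 to 6.38) had at least 3. Unthinned, the shares with at least 1 were 49.8% and 51.9%. Over all kept cells the difference between libraries was thus in cells with several targets, but the mix of classes differed too. B cell-like cells, for example, were 14.9% of control and 5.23% of NASH cells, and 0.68% and 0.77% of them had at least 3. The part of this mix was not tested. LSEC-like cells had 2.51% (1.60 to 3.74) and 4.44% (3.19 to 6.00) with at least 3, intervals that overlap. They overlapped in VEC-like, KC-like, monocyte and macrophage-like and T cell-like cells as well. No NPC class is known to lack these genes, so free RNA could not be read from an empty class. The lowest control share with at least 1 target was 4.76% in plasma cell-like cells (median 8598 UMIs before thinning), against 55.6% in KC-like cells (median 6161 UMIs), so the shares were not alike among classes. For interferon-gamma targets, T cell-like cells with at least 3 were 16.6% (13.4 to 20.3) and 28.2% (23.1 to 33.8).

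Cells with an *Isg15* UMI were next compared with cells without one. At 1000 UMIs, 46.5% (38.9 to 54.3) of the 172 control cells with an *Isg15* UMI had another type I target, against 34.2% (32.6 to 35.9) of those without. In NASH these shares were 57.8% (51.3 to 64.1) of 244 cells and 34.1% (32.3 to 35.9). KC-like cells, most of which had a target at this depth, had 54.2% and 53.1% in the control, with and without *Isg15*, and in NASH 64.0% of 25 cells and 54.9%. T cell-like cells had 21.2% and 24.9% in the control, and 40.7% of 27 cells and 17.7% in NASH. These shares pool classes and carry no test.

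Genes upstream and beside the members were taken from lists made by name. Of 20 interferon genes 2 had a column, and *Ifng* was the one with at least 50 UMIs, in T cell-like and in NK cell and ILC1-like cells. Of 8 receptor and kinase genes, *Ifngr2*, a chain of the interferon gamma receptor, was lower in LSEC-like cells, 88.1 and 53.8 CPM (-0.71, -1.07 to -0.36), and in VEC-like cells, 81.0 and 49.7 CPM (-0.71, -1.28 to -0.13). In monocyte and macrophage-like cells *Ifngr1*, the ligand-binding chain, was 765 and 462 CPM (-0.73, -0.91 to -0.54), and *Ifnar1*, a chain of the type I receptor, 81.5 and 125 CPM (0.61, 0.13 to 1.14). Among 15 genes of MHC class I presentation, LSEC-like cells had 0 higher and 1 lower by 1.5 times (*Psme2*, 76.0 and 45.6 CPM), beside 4.49% and 5.89% of all genes. KC-like cells had 0 and 0, beside 5.51% and 3.39%. Monocyte and macrophage-like cells had 2 of 14 higher (*Calr* and *Pdia3*, both chaperones), where 11.5% of all genes were higher. In the neutrophil-like class, which joins both clusters, 8 of 13 MHC class I genes were higher and 0 lower, beside 19.6% and 19.7% of all genes. The median ratio of these 13 was 0.67 beside -0.04 over all genes. Cluster 17 gave 14 control and 48 NASH cells to this class, so its make-up differed between diets. This list was not counted in cluster 5 alone, and the part of the make-up was not tested.

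Chemokines that draw CXCR3-bearing T cells differed by class. *Cxcl9*, induced mainly by interferon gamma, was 126 and 238 CPM in KC-like cells (0.92, 0.73 to 1.11) and 76.1 and 157 CPM in VEC-like cells (1.03, 0.57 to 1.54), but 1115 and 787 CPM in monocyte and macrophage-like cells (-0.50, -0.65 to -0.36). *Cxcl10* was 67.8 and 140 CPM in VEC-like cells (1.03, 0.54 to 1.57), 128 and 87.2 CPM in KC-like cells (-0.55, -0.80 to -0.30) and 380 and 212 CPM in monocyte and macrophage-like cells (-0.84, -1.10 to -0.58). *Ciita*, the activator of MHC class II genes, was 356 and 206 CPM in the latter (-0.79, -1.06 to -0.52). Of 50 further interferon-stimulated genes 45 had a column. LSEC-like cells had 2 of 33 higher and 1 lower, KC-like cells 0 of 38 and 3, monocyte and macrophage-like cells 2 of 32 and 6, and T cell-like cells 1 of 28 and 1. Beside these counts, 4.49% of all genes were higher and 5.89% lower in LSEC-like cells, and 5.51% and 3.39% in KC-like cells. The shares were 11.5% and 14.7% in monocyte and macrophage-like cells and 5.66% and 5.64% in T cell-like cells. The heat shock gene *Hspa1a*, which responds to tissue dissociation, was 59.9 and 126 CPM in LSEC-like cells (1.07, 0.76 to 1.39) and 164 and 393 CPM in KC-like cells (1.26, 1.10 to 1.42). The 15 immediate early and heat shock genes summed to 2436 and 3032 CPM in LSEC-like cells and 16235 and 12547 CPM in monocyte and macrophage-like cells. Their part in the results was not tested.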

How the data were processed

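The authors deposited 1 table of UMI counts per diet, made with the BD Rhapsody whole transcriptome analysis pipeline, which filters reads, counts molecules and calls cells. The submitters' processing notes name the genome build GRCm38, and no source used here names the annotation version. Values are raw counts with no normalization. The NASH table has no header, so its 16384 columns were named by the control header: the correlation of log column totals was 0.973 in this order and 0.473 and 0.471 when shifted by 1 column, and 0.858 to 0.991 in windows around the members. There were 12 columns named as dates. *Mx2* and genes after *Rad54l2* in the alphabet were not analysed here.

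Cells with at least 500 UMIs and 200 genes were kept and clustered in Seurat 5.3.0 (SeuratObject 5.2.0, R 4.3.3) on 2000 variable genes without the members, with log normalization, regression on total UMIs, 50 principal components and resolution 0.6, without integration. Doublets were kept; leaving out cells with markers of a second class was an alternative. UMIs were summed per class and library and divided by all UMIs of those cells (CPM). Ratios used 0.5 added UMI and genes reaching 50 UMIs with the libraries added up; a gene was counted from 1.5 times. Poisson and exact binomial (Clopper-Pearson) 95% intervals cover counting error only. With 1 library per diet, diet, library and capture cannot be told apart. Tools were Python 3.11.15, numpy 2.4.6, scipy 1.17.1, pandas 2.3.3 and matplotlib 3.10.9. The scripts were tested on simulated data. All members could be named, and from each pathway list up to 4 genes with the largest ratios. Members, lists and alternatives were chosen with earlier results of these data known.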

Additional observations from a re-analysis of the deposited data

Results flagged for a closer look

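For 10 members the difference between diets was past 1.5 times, with the whole counting interval on that side of 0, upwards in 1 cell class and downwards in another. The difference between classes was not tested, since each diet is 1 library, and the values are log2 ratios of NASH to control. The share of all genes that meet this rule was not counted. In monocyte and macrophage-like cells 11.5% of all genes were higher and 14.7% lower by 1.5 times, and in neutrophil-like cluster 5 13.5% and 13.6%.

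Of the interferon-gamma targets, 5 met this in T cell-like against monocyte and macrophage-like cells. *Iigp1* was at 0.94 in T cell-like and -1.95 in monocyte and macrophage-like cells, *Igtp* at 0.77 and -0.81, *Gbp3* at 0.66 and -0.88, *Gbp6* at 0.86 and -1.12, and *Gbp8* at 0.60 and -0.85. *Gbp2* was at 1.36 in neutrophil-like cluster 5 and -1.95 in cholangiocyte-like cells.

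Among the type I targets, *Ifit1* was at 1.99 in neutrophil-like cluster 5 and -1.44 in cholangiocyte-like cells. *Ifit2* was at 0.95 in dendritic cell-like and -0.68 in T cell-like cells, and without the highest cells the former was 0.20. *Mx1* was at 0.99 in dendritic cell-like and -0.88 in monocyte and macrophage-like cells. Of the other members, *Cmpk2* was at 1.04 in VEC-like and -0.80 in monocyte and macrophage-like cells.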

How the results depend on the processing

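No paired analysis was possible because each diet was 1 library without replicate numbers, and no replicate could be left out. Of 165 values of 18 summed levels under the alternatives, 137 stayed within the counting interval and 28 moved; of 610 values of the 70 member differences past 1.5 times, 582 stayed, 25 moved and 3 turned in sign. The alternatives in classes other than LSEC-like and KC-like cells, and those without the highest cells, were chosen after seeing the data, and cluster 5 was not reclustered. Values are log2 ratios, and the cause of each difference was not tested.

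Without cells holding markers of a second class, the type I sum was 0.18 and the interferon-gamma sum 0.13 over all kept cells, the interferon-gamma sum was -0.0014 in VEC-like and -0.14 in dendritic cell-like cells, the type I sum 0.30 in dendritic cell-like cells, and *Ifi204* in dendritic cell-like cells -0.22. Members higher in LSEC-like cells were then 4, and in KC-like cells 0 were higher and 2 lower. With totals lacking immunoglobulin, haemoglobin and hepatocyte genes, the type I sum was 0.17 and the interferon-gamma sum 0.015 over all kept cells. As a mean over cells, the interferon-gamma sum was 0.21 over all kept cells, -0.038 in VEC-like, -0.23 in KC-like, -0.45 in monocyte and macrophage-like and -0.72 in cholangiocyte-like cells, the type I sum 0.36 in monocyte and macrophage-like and 0.69 in dendritic cell-like cells, and *Ifit3* and *Gbp7* in cholangiocyte-like cells 0.31 and 0.30.

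Clustering with the members gave interferon-gamma sums of -0.031 in VEC-like and -0.57 in monocyte and macrophage-like cells, and a type I sum of -1.35 in cholangiocyte-like cells; resolution 1.2 gave -0.58 and -1.35 in the last 2 of these. Without the member with most UMIs, the type I sum was 0.35 over all kept cells and 1.10 in cluster 5, and the interferon-gamma sum -0.96 in monocyte and macrophage-like cells. Without the highest cell of each library, interferon-gamma sums were -0.024 in VEC-like cells, -0.63 in monocyte and macrophage-like cells and 0.41 in cluster 5, and type I sums 0.32 in dendritic cell-like cells and 0.35 in cluster 5. Without near-identical copies the type I sum in KC-like cells was 0.022. Unthinned, the shares of cells with a type I target UMI in control and NASH were 49.8% and 51.9% over all kept cells, 46.9% and 39.8% in LSEC-like and 88.2% and 86.1% in KC-like cells, against 35.3% and 36.3% in thinned LSEC-like cells, where the order of the libraries was the other way. With at least 100 UMIs per gene, 1 member was lower in LSEC-like and 0 higher in KC-like cells, and with cells of at least 1000 UMIs 1 was lower in LSEC-like cells.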
